A study of Rattus norvegicus with 145 samples.

Results

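Striatum of Long Evans rats heterozygous for a Q130 knock-in was compared with striatum of wild-type rats at 19 months of age. The 20 libraries were those whose sample titles name striatum and this age, 10 Q130 knock-in (KI, labelled Q130 KI Het) and 10 wild type (WT), out of 145 libraries in the series. Each genotype had 5 females and 5 males, and each library came from a different animal. The tissue is labelled Corpus Striatum and no treatment is given for either genotype. Cerebral cortex and cerebellum of the same 20 animals, and striatum of other animals at 2, 6, 10 and 24 months, served for comparison. The animals of 19 months carry another identifier prefix than all animals of the other ages, so in every comparison across ages the age and the series of animals cannot be told apart. RNA came from bulk tissue, in which fewer cells of a type and less RNA per cell cannot be told apart.

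Huntington's disease is an inherited neurodegenerative disorder in which a CAG repeat within the huntingtin gene is expanded, lengthening a glutamine stretch in the protein. The striatum, a forebrain nucleus that controls movement and motivation, is the region most affected, and its main cell type is the medium spiny neuron, a GABAergic projection neuron. In patients and in many mouse models, mRNAs that mark medium spiny neurons fall well before neurons are lost. The deposited tables carry Ensembl identifiers without gene symbols, so genes are given below by identifier or as groups defined by the brain region that expresses them most.

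Each library held 26.7 to 34.5 times 1000000 estimated counts, and 20 of 20 matched their sex label. Genes at least 4-fold higher in striatum than in both other regions of WT rats of 24 months had a mean log2 CPM (counts per 1000000 counts) between 2.91 and 3.70 in these libraries, against 0.914 to 1.43 in the cortex libraries of the same animals, with the 3 regions normalised together. No striatum library overlapped the cortex libraries. The KI male M3 and the WT male M4 stood apart from the rest: their mean Spearman correlations with the other libraries were 0.945 and 0.965, and no other library was below 0.978. In both of them long transcripts were low relative to short ones. The first principal component held 51% of the variance among libraries, and its highest scores were those of KI M3 (83.1), WT M4 (58.4) and KI F5 (36.2), the 3 libraries with the lowest length slopes. Results that rest on these 2 libraries are given with and without them.

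Few genes were called as different between KI and WT striatum at 19 months. Of 15271 genes tested, 2 (0.0131%) were higher and 1 (0.00655%) was lower in KI at an adjusted p under 0.05 (edgeR quasi-likelihood test with Benjamini-Hochberg adjustment), 0.0196% in all. At an unadjusted p under 0.05 there were 260 genes (1.7%), of which 186 (1.22%) were higher and 74 (0.485%) lower in KI. That share is below the 0.05 expected if no gene differed. Without KI M3 and WT M4 there were 320 genes (2.09%), and with each library's length slope as a covariate 539 genes (3.53%). The fourth smallest adjusted p was 0.717. The median absolute log2 difference over all genes was 0.0521, only 130 genes differed by more than 0.5 log2 units, and 11 differed by more than 1, of which 8 were higher and 3 lower in KI. In all, 53.5% of genes had a higher value in KI. With limma on log2 of the length-scaled values plus 0.1, which are not TMM-normalised, that share was 28.6%. That fit differs in its scale, its model and its set of genes at once; with RLE in place of TMM factors alone the share was 53.3%.

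For most genes the data bounded the difference closely. The 95% interval of the KI minus WT log2 difference lay wholly within 0.5 of 0 for 79.3% of the genes tested, and its median half-width was 0.222. This share was 12.7% for genes with a mean log2 CPM under 0 and 95.8% for genes above 6, so for most weakly expressed genes the interval did not exclude a difference of 0.5. Without KI M3 and WT M4 it rose to 84.3% overall. In females alone it was 70.8% and in males alone, who include both libraries that stood apart, 55.5%.

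**Figure D1:**
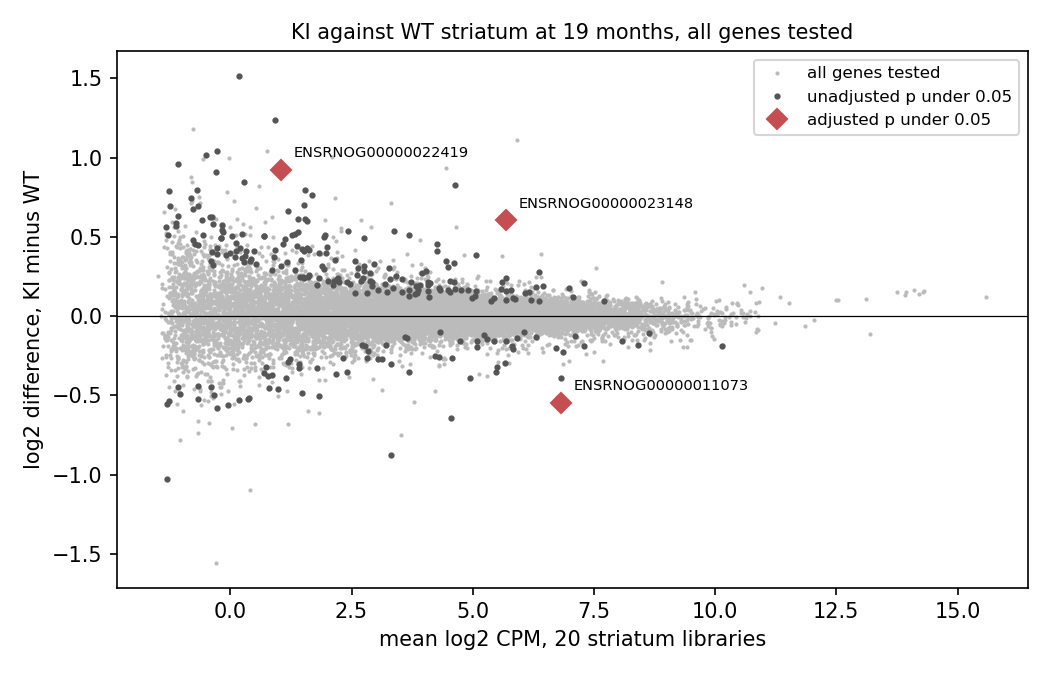
Mean log2 CPM over the 20 striatum libraries (x axis) against the KI minus WT log2 difference (y axis) for each of 15271 genes tested. Grey points are all genes, dark points have an unadjusted p under 0.05, and the 3 red diamonds passed the adjusted threshold; the cloud lies close to 0 except among weakly expressed genes.

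ENSRNOG00000023148 was higher in KI. In WT its level ranged from 34.1 to 48.5 CPM with a median of 40.6, and in KI from 48.7 to 76.8 CPM with a median of 60.8. The 2 genotypes did not overlap: 10 of 10 KI animals lay above the highest WT animal. All identifiers named here were chosen by their p in these same libraries, so such separation is not separate evidence. How many of all genes separate in this way was not counted. The means were 40.6 ± 4.67 and 61.8 ± 9.6 CPM (SD, n = 10 each). The log2 difference was 0.605 ± 0.0876 (SE; 95% interval 0.422 to 0.787; edgeR adjusted p = 0.0152). The difference was 0.57 in females and 0.64 in males. Without KI M3 and WT M4 it was 0.64 (edgeR adjusted p = 0.00794). Among the 20 fits that left out 1 library, the call was lost only without the WT female F1 (log2 difference 0.59, edgeR adjusted p = 0.0527).

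The same gene belongs to the striatum-enriched group. With WT libraries of the 3 regions normalised together, ENSRNOG00000023148 stood at 42.3 ± 4.85 CPM in striatum, 8.24 ± 1.94 in cortex and 6.05 ± 2.18 in cerebellum (SD, n = 10 each, 19 months). In the same animals the KI minus WT log2 difference was -0.07 ± 0.126 in cortex and 0.07 ± 0.164 in cerebellum (SE). The direct tests of striatum against cortex and against cerebellum gave differences of 0.65 and 0.51, neither of which passed over all genes (edgeR adjusted p = 0.914 and 0.506). In striatum of other animals, each age normalised on its own, the KI and WT means were 54.4 and 53.9 CPM at 2 months, 42.4 and 43 CPM at 6 months and 49.2 and 49.6 CPM at 10 months. At 24 months they were 70.4 ± 17.2 and 41.7 ± 4.06 CPM (SD, n = 7 and n = 4), with 7 of 7 KI animals above the highest WT animal. KI and WT means were thus nearly equal at the 3 younger ages and apart at the 2 older ones. In cerebellum of 24 months, 6 of 7 KI animals also lay above the highest WT animal (log2 difference 0.49 ± 0.181, SE; edgeR adjusted p = 0.23), while in cortex of that age the difference was -0.39 ± 0.186. The 24-month striatal log2 difference of 0.76 ± 0.184 did not pass over all genes (edgeR adjusted p = 0.998), nor did the change from 10 to 19 months of 0.62 ± 0.167 (edgeR adjusted p = 1).

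ENSRNOG00000022419 was the other gene that was higher in KI, and it was weakly expressed. Its WT levels ran from 0.837 to 1.77 CPM with a median of 1.37, and its KI levels from 1.89 to 4.77 CPM with a median of 2.42. Again 10 of 10 KI animals lay above the highest WT animal. The means were 1.38 ± 0.281 and 2.63 ± 0.849 CPM (SD, n = 10 each). The log2 difference was 0.93 ± 0.15 (SE; 95% interval 0.613 to 1.24; edgeR adjusted p = 0.0247). The KI female F4 had the highest value, 4.77 CPM, with the next KI animal at 3.23; without it the difference was 0.81 (edgeR adjusted p = 0.0273). Females and males gave 0.94 and 0.91.

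This call depended on single libraries about as much as that of ENSRNOG00000011073, the gene called lower in KI. Of 20 fits that left out 1 library, it was lost in 11, that of ENSRNOG00000011073 in 10 and that of ENSRNOG00000023148 in 1. Without KI M3 and WT M4 the log2 difference of ENSRNOG00000022419 was 0.91, but its adjusted p was 0.101 in the same test. It was also lost when any 1 of 11 libraries was left out (KI F5, M1, M2 or M4, or WT F1, F4, F5, M1, M2, M3 or M4), with log2 differences of 0.876 to 0.950 and edgeR adjusted p from 0.0536 to 0.0768. In the same animals the KI minus WT log2 difference was 0.25 ± 0.0824 in cortex and 0.69 ± 0.242 in cerebellum (SE; edgeR adjusted p = 0.748 and 0.173). In striatum of other ages the KI mean lay between 2.03 and 3.00 CPM and the WT mean between 1.65 and 2.53 CPM. The KI mean of 19 months fell inside its range at other ages, whereas the WT mean of 1.38 CPM was below that of every other age. At 24 months the difference was 0.10 ± 0.211, and its change from 19 to 24 months, -0.82 ± 0.251, did not pass over all genes (edgeR adjusted p = 1).

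ENSRNOG00000011073 was lower in KI. Its WT levels ran from 109 to 149 CPM with a median of 136, and its KI levels from 61.2 to 111 CPM with a median of 92.1. All KI animals lay below the WT median, and 9 of 10 lay below the lowest WT animal; the exception was the KI male M1, at 111 CPM. The lowest WT animal was M4 and the lowest KI animal was M3, the 2 libraries in which long transcripts were low, and this gene is longer than most (percentile 99.8 of effective length). The means were 134 ± 12.3 and 91.7 ± 14.8 CPM (SD, n = 10 each), so KI stood at 68.5% of WT, and the log2 difference was -0.545 ± 0.0884 (SE; 95% interval -0.729 to -0.361; edgeR adjusted p = 0.0247).

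The fall was of similar size, with a smaller error, once the length trend was taken into account. Without KI M3 and WT M4 the log2 difference of ENSRNOG00000011073 was -0.525 ± 0.0612 (SE; edgeR adjusted p = 0.000973). With each library's length slope as a covariate it was -0.513 ± 0.0383 (SE; edgeR adjusted p = 3e-07). With all libraries and no such covariate, the call was lost when any 1 of 10 libraries was left out (KI F2, F4, F5 or M4, or WT F1, F4, F5, M1, M2 or M3). The log2 difference then stayed between -0.544 and -0.517 and the edgeR adjusted p lay between 0.0533 and 0.077. Without both KI F4 and KI M5 the adjusted p was 0.124 in the same test.

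The mean of this gene was lower in KI in each region and at each age measured. In the same 19-month animals the log2 difference of ENSRNOG00000011073 was -0.32 ± 0.0823 in cortex (SE; edgeR adjusted p = 0.748) and -0.509 ± 0.0819 in cerebellum (SE; edgeR adjusted p = 0.00103), where 10 of 10 KI animals lay below the lowest WT animal. In striatum the KI and WT means were 96.3 and 126 CPM at 2 months, 94.7 and 108 CPM at 6 months, 96.1 and 132 CPM at 10 months and 82.3 and 133 CPM at 24 months. At 10 months the log2 difference was -0.46 ± 0.0626 (SE; edgeR adjusted p = 0.00655), and 10 of 10 KI animals lay below the lowest WT animal. The difference at 19 months minus that at 10 months was -0.09 ± 0.11 (SE), with a 95% interval from -0.308 to 0.136. The 24-month value minus the 19-month value was -0.14 ± 0.16, with an interval from -0.47 to 0.187.

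**Figure D2:**
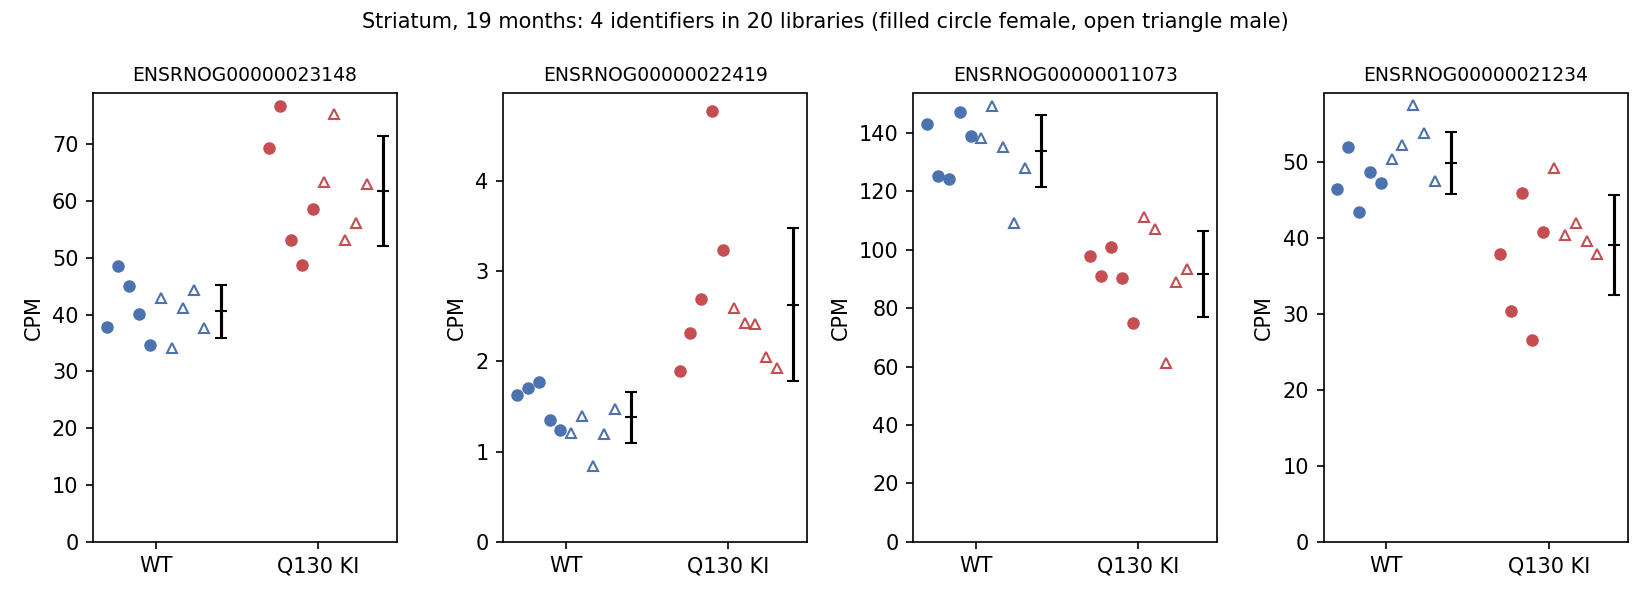
CPM of 4 identifiers in each striatum library of 19 months (y axis), by genotype (x axis); filled circles are females, open triangles males, and the black mark is the mean with its SD (n = 10). The first 2 panels show no overlap between WT and KI. In the third 1 KI animal, and in the fourth 2 KI animals, lie inside the WT range. The identifiers were chosen by their p in these same libraries.

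ENSRNOG00000021234 had the next smallest p among genes lower in KI and did not pass. Its WT levels ran from 43.4 to 57.4 CPM with a median of 49.4, and its KI levels from 26.6 to 49.2 CPM with a median of 40. All KI animals lay below the WT median and 8 of 10 lay below the lowest WT animal. The log2 difference was -0.354 ± 0.0797 (SE; edgeR adjusted p = 0.748), and -0.310 without KI F4, the lowest KI animal. In WT rats of 19 months this gene was 4.9-fold higher in striatum than in the higher of the other regions. In WT rats of 24 months, which define the groups, it was 3.91-fold higher, so it is not in the 4-fold striatum-enriched group. In cortex of the same animals it was 0.21 log2 units lower in KI, with 7 of 10 KI animals below the lowest WT animal (edgeR adjusted p = 0.748). At 24 months its KI and WT means in striatum were 19.4 ± 9.41 and 34.2 ± 12.5 CPM (SD, n = 7 and n = 4), and at 10 months 36.6 ± 11.6 and 38.7 ± 10.1 CPM (SD, n = 10 each).

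**Figure D3:**
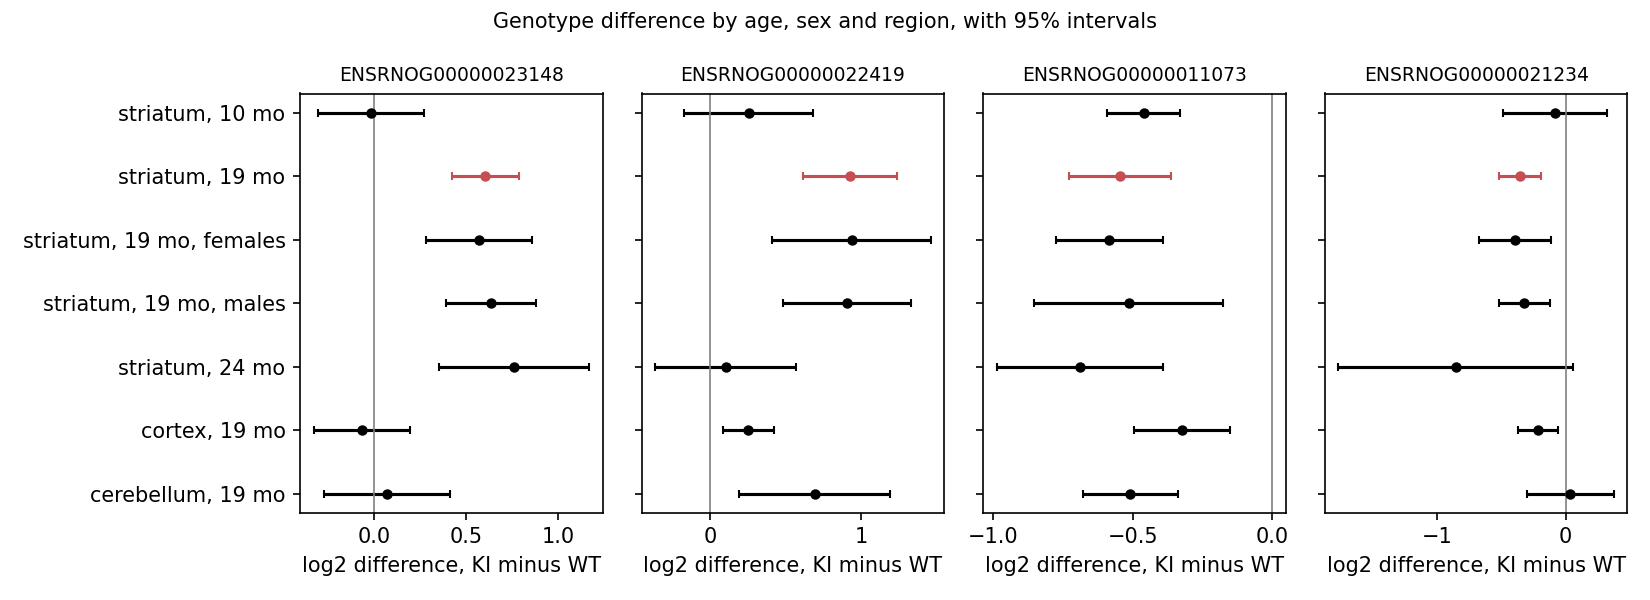
KI minus WT log2 difference (x axis) of the 4 identifiers with 95% intervals from edgeR, by region, age and sex (y axis); red marks the striatum of 19 months with both sexes. ENSRNOG00000011073 lies below 0 throughout, whereas the intervals of ENSRNOG00000023148 lie wholly above 0 in striatum at 19 and 24 months and include 0 in the other 3 settings.

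The 3 genes called had similar genotype differences in both sexes. They were called from both sexes together, which favours genes alike in both, so this similarity is not separate evidence. Across all genes the female and male differences were only weakly related. Males minus females, the differences of the 3 genes were 0.06 ± 0.179, -0.04 ± 0.31 and 0.06 ± 0.181 log2 units in the order given above (SE; edgeR adjusted p = 1 for each). In females alone 1 of 15276 genes (0.00655%) passed, with 348 (2.28%) at an unadjusted p under 0.05. In males alone 0 of 15329 passed with edgeR and 1 (0.00652%) with DESeq2, with 94 (0.613%) at an unadjusted p under 0.05. Over the 13112 genes with a mean log2 CPM of at least 1, the female and male log2 differences had a Pearson r of 0.0687, a Spearman rho of 0.181 and the same sign for 58% of genes. These are descriptions across genes, which share libraries and are not independent. Without KI M3 and WT M4 r was -0.11, rho was -0.00981 and 50.7% of genes had the same sign. Without KI F4 and KI M5 as well, r was -0.14 and the share was 41%.

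A single gene of 15696 tested, 0.00637%, had a genotype difference that differed between the sexes. Its WT females ranged from 19.6 to 21.3 CPM and its KI females from 27.6 to 34.2 CPM, so that 5 of 5 KI females lay above every WT female. The gene was chosen by its p in these same libraries, so this separation is not separate evidence. Among males the order was the opposite: WT ranged from 22.4 to 35.4 CPM and KI from 17.7 to 23.4 CPM. The medians were 20.2 and 30.2 CPM in WT and KI females, and 33.8 and 21.9 CPM in WT and KI males. The log2 difference was 0.58 ± 0.0676 in females (SE; edgeR adjusted p = 0.0324) and -0.53 ± 0.136 in males (SE; edgeR adjusted p = 1). Their difference, males minus females, was -1.12 ± 0.15 (SE; edgeR adjusted p = 0.00701), and -1.16 without KI M3 and WT M4 (edgeR adjusted p = 0.0115). It was the 1 gene that passed in females alone. When single female libraries were left out, 1 gene passed without KI F5 and 0 passed without any 1 of the others.

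The same difference passed in the other regions of these animals, and it did not pass in other animals. Males minus females, the difference was -0.979 ± 0.147 in cortex and -1.24 ± 0.15 in cerebellum (SE; edgeR adjusted p = 0.0213 and 0.00101). The WT male M3, the lowest WT male in striatum at 22.4 CPM against 29.4 for the next, was also the lowest WT male in cortex, at 15.8 against 23.8 CPM, and in cerebellum, at 7.84 against 11 CPM. Not every animal kept its rank: KI M4 was the lowest KI male in striatum and cortex and the highest in cerebellum. The 3 regional tests share their animals and are not independent of each other. In striatum at 10 months the difference was 0.32 ± 0.221 (SE; edgeR adjusted p = 0.872), and at 24 months -0.57 ± 0.242 (SE; edgeR adjusted p = 0.824).

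**Figure D4:**
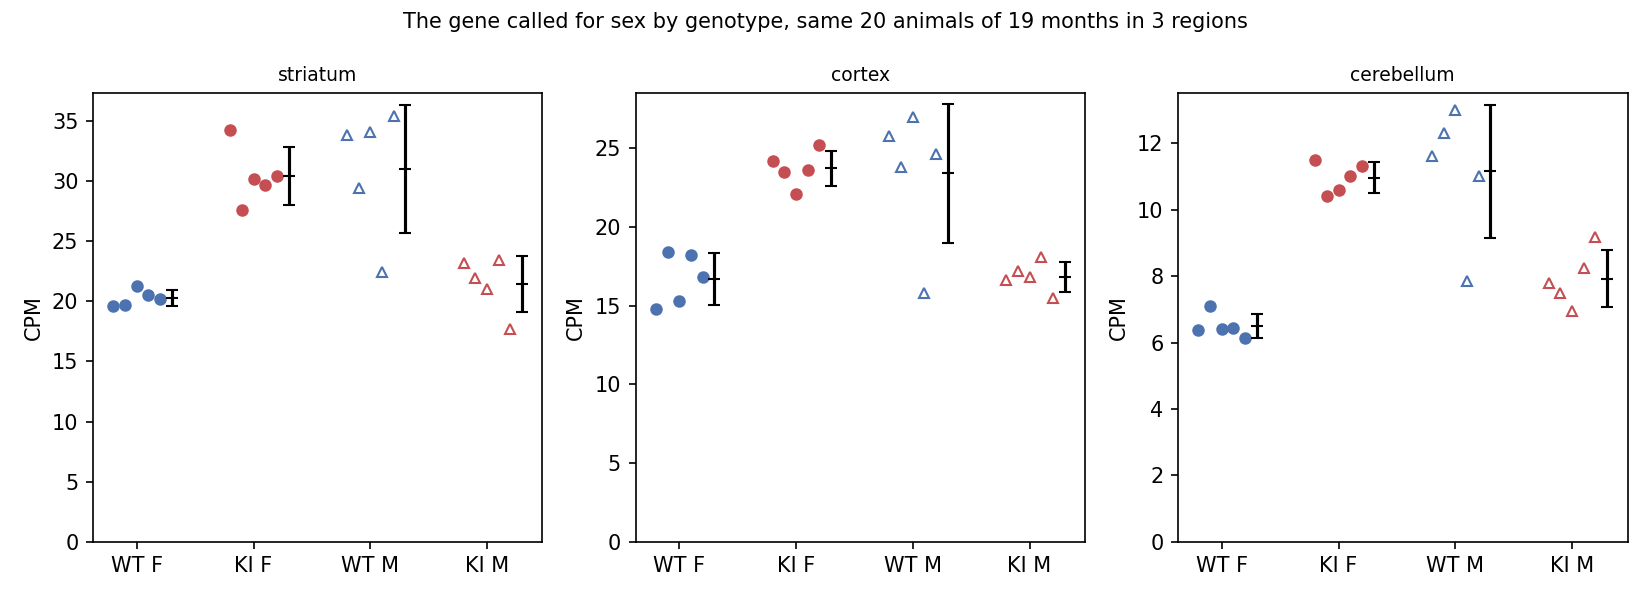
CPM (y axis) of the gene whose genotype difference differed between the sexes, in striatum, cortex and cerebellum of the same 20 animals of 19 months, by genotype and sex (x axis); animals keep their order across panels and the black mark is the mean with its SD (n = 5). In each panel KI females and most WT males are high, and WT females and KI males are low.

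Striatum-enriched genes, a class that in general includes many mRNAs of medium spiny neurons, had slightly lower values in KI as a group. Of 220 such genes 160, or 72.7%, were lower in KI, against 46.5% of all genes tested, and the median log2 difference was -0.0867, against 0.00649 for all genes. Only 1 of the 220 passed the threshold, and it was ENSRNOG00000023148, which was higher. At an unadjusted p under 0.05 there were 8 lower and 2 higher members, or 4.55%, against 1.7% of all genes. Both shares are below the 0.05 expected if no gene differed. With a 2-fold in place of a 4-fold definition, 861 genes had a median of -0.0292 (-0.0101 without KI M3 and WT M4) and 58.7% were lower, with 22 higher and 19 lower members at an unadjusted p under 0.05. The mean log2 CPM of the group ranged from 3.08 to 3.53 with a median of 3.26 in WT animals, and from 2.64 to 3.57 with a median of 3.22 in KI animals. The genotypes overlapped: KI F4 and KI M3 lay below the WT range, KI M2 above it and the remaining 7 KI animals inside it, with means of 3.29 ± 0.172 and 3.19 ± 0.237 (SD, n = 10 each).

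Of single libraries, 1 KI animal changed the group's median most when left out. The KI female F4, at 2.64, was well below the next KI animal at 3.06; its level of cortex-enriched genes, 1.45, was the lowest of the KI females. Without KI F4 the striatal median became -0.0269, and 62.7% of members were lower, against 48.3% of all genes. Without KI F4 and KI M5 the median was -0.0145, and 54.5% were lower against 48.2% of all genes. The median was also smaller by more than 1.5 times without WT F2 (-0.0538), without WT M1 (-0.0497), without WT M4 (-0.0534) and without both KI M3 and WT M4 (-0.055). It was -0.123 in females, and -0.0722 in females without KI F4, where 62.3% of members were lower against 51% of all genes. In males it was -0.0365, and 0.00516 without KI M3 and WT M4. With the length-scaled values it was -0.154, where the median of all genes was also lower, at -0.0467. Of the 30 genes more than 16-fold higher in striatum, 24 were lower in KI, with a median of -0.121. That median was -0.135 without KI F4, -0.152 without KI M3 and WT M4, -0.113 without KI F4 and KI M5 and -0.0797 in females without KI F4. With edgeR 0 of the 30 passed the adjusted threshold and 2 had an unadjusted p under 0.05. This subdivision was chosen after the data were seen.

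Cortex-enriched genes leaned the other way. Of 122 tested in striatum, 30.3% were lower in KI and the median log2 difference was 0.0793; 13 were higher and 0 lower at an unadjusted p under 0.05, or 10.7% against 1.7% of all genes, and 0 passed the adjusted threshold. With limma on the length-scaled values the median was 0.0195, and 2 of 165 members (1.21%) had an unadjusted p under 0.05, against 1.56% of all genes in that fit. The KI male M5 had the highest mean level of these genes, 2.34 on the log2 CPM scale against 1.73 for the next KI animal, and the WT range was 1.11 to 1.72. Without KI M5 the median was 0.0236, without WT M4 0.049 and without KI M3 0.141. In males it was 0.113, and -0.0365 without KI M5. The origin of this signal in KI M5 was not tested. The 218 cerebellum-enriched genes had a median of 0.0111, and -0.00121 without KI M5.

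**Figure D5:**
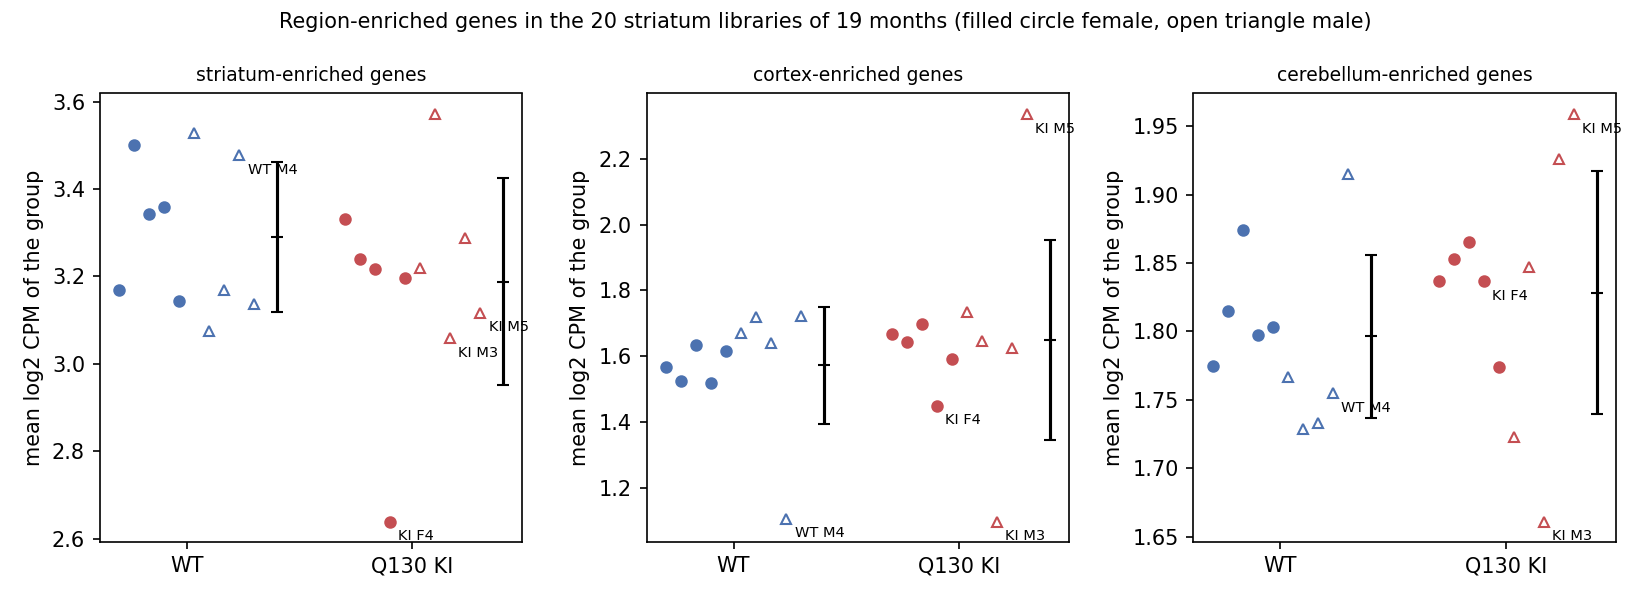
Mean log2 CPM (y axis) of striatum-, cortex- and cerebellum-enriched genes in each striatum library of 19 months, by genotype (x axis); filled circles are females, open triangles males, and the black mark is the mean with its SD (n = 10). KI F4 is lowest for striatum-enriched genes and KI M5 highest for cortex-enriched genes, while the remaining WT and KI animals overlap.

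The genotype differences of 19 months were set beside those of other animals. The KI male M4 of 24 months and the WT male M2 of 10 months also stood apart from their sets, and both were kept. At 19 months longer genes tended to lower differences (Spearman rho with effective length -0.217, and -0.132 without KI M3 and WT M4). Whether length trends add to the agreement between ages was not tested. Over 13104 genes with a mean log2 CPM of at least 1, the log2 differences of 19 and 24 months had a Pearson r of 0.343, and 146 of 182 genes with an unadjusted p under 0.05 at 19 months, or 80.2%, had the same sign at 24 months, against 62.8% of all these genes. Without KI M3 and WT M4 r was 0.302 and the share was 77.5%, against 62.3% of all these genes. Without KI F4 and KI M5 r was 0.212 and the share was 76.2%, against 59.7%. With both left out and region-enriched genes (2-fold) set aside it was 69%, or 40 of 58 genes, against 59.7% of all these genes. Against 10 months r was 0.155, and 125 of 182 genes, 68.7%, kept their sign against 61.4% overall; without KI M3 and WT M4 r was 0.0755 and the share was 63.9% against 58%. No gene passed a test that the genotype difference changed between 10 and 19 months (0 of 15684, with 364, or 2.32%, at an unadjusted p under 0.05) or between 19 and 24 months (0 of 16092, with 276, or 1.72%) with edgeR, and DESeq2 also called 0 in both.

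For some genes the genotype difference in striatum was not that of cerebellum. In cerebellum 352 of 15101 genes, or 2.33%, were called at 19 months, against 3 in striatum and 0 of 15280 in cortex. In cortex 813 genes (5.32%) had an unadjusted p under 0.05. Precision was lower in striatum: the median SE of the log2 difference was 0.107, against 0.0719 in cerebellum and 0.0683 in cortex. Without KI M3 and WT M4 the striatal value was 0.09. The numbers of genes called in striatum and cerebellum therefore do not by themselves compare the size of the differences. Tested within animals, the genotype difference of 20 of 15881 genes (0.126%) differed between striatum and cerebellum with edgeR. All 20 were called in cerebellum and 0 in striatum, and their median absolute log2 difference was 0.6 in cerebellum and 0.0686 in striatum. The sign was opposite in the 2 regions for 15 of them. The 20 genes were chosen by this test in these same libraries, so these values are not separate evidence. Against cortex 0 of 15864 genes differed with edgeR and 1 (0.0063%) with DESeq2, with 379 (2.39%) at an unadjusted p under 0.05. In cerebellum of other animals at 24 months 334 of 15381 genes (2.17%) were called, 185 (1.2%) higher and 149 (0.969%) lower in KI. In striatum at 19 months their median log2 differences were 0.0168 and 0.00581, and 57.1% of 182 risers and 57% of 142 fallers were higher in KI striatum, against 53.5% of all genes tested. Without KI M3 and WT M4 59.9% of risers and 46.5% of fallers were higher in KI, against 53.7% of all genes. With the length slope as a covariate these shares were 59.9%, 45.8% and 52.2%, and without KI F4 and KI M5 they were 53.3%, 48.6% and 51.8%. With all libraries 0 risers and 1 faller, ENSRNOG00000011073, passed the adjusted threshold in striatum.

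The spread between animals was larger in KI than in WT for most genes when all libraries were used. The SD of log2 CPM around the mean of each genotype and sex had a median of 0.227 in KI and 0.175 in WT over 13106 genes, and was larger in KI for 78.1% of them. The share was 77.7% without KI M3 and WT M4. It was 36.5% once KI F4, KI F5 and KI M5 were also left out, which removes 4 KI libraries and 1 WT library chosen because they stood apart, and so lowers the KI spread by construction. No test was run on the spread, since genes share libraries.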

How the data were processed

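Messenger RNA of striatum was sequenced, per the labels' protocols from total RNA extracted with a Qiagen kit, checked on a Bioanalyzer and made into Illumina libraries. The authors deposited estimated counts for 32883 Ensembl rat identifiers (reference Rat.B6.0, per the file headers), of which 8.12% of values are not whole; they were rounded here. The other table that the authors deposited is named FPKM, but each library sums to 1000000, so it was treated as TPM. Aligner, counter and annotation: not given in the sources used here. The tables available here paired 0 identifiers with symbols, so gene lists, cell type markers and huntingtin were not tested by name and no sequences are shown. The genes named are those past the threshold by p, with at most 2 identifiers in each direction; the second lower one did not pass. Members, groups and lists were chosen with earlier results of these data known.

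KI and WT were compared with edgeR 4.0.16 in R 4.3.3 (TMM, filterByExpr, robust quasi-likelihood F test, sex as covariate) at a Benjamini-Hochberg adjusted p under 0.05 over all genes tested. Sex, age and region differences were interaction contrasts, region with animal as a block. Each library is another animal, and the p-values rest on the spread among animals. CPM uses TMM factors within a region and age. Region-enriched groups came from WT libraries of 24 months (at least 4-fold over both other regions, at least 1 CPM); effective length is from the ratio of the 2 tables. Alternatives were RLE factors, DESeq2 1.42.0, other filters, limma-trend (limma 3.58.1) with log2 TPM-scale values, no sex term, all ages in 1 fit, a replicate block, a length covariate and leaving out libraries. The fits were first tested on simulated data, which had no length trend, no sex effect and no libraries that stood apart.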

Additional observations from a re-analysis of the deposited data

Results flagged for a closer look

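Single values stood far from their group of 10 libraries in 5 cases, by Dixon's test at the 95% level, which chance would give in about 1 of 20 groups; 20 groups were looked at. ENSRNOG00000022419 was at 4.77 CPM in KI F4, with the next KI animal at 3.23. The mean log2 CPM of cortex-enriched genes was 2.34 in KI M5, with the next at 1.73, and 1.11 in WT M4, with the next at 1.52. The mean Spearman correlation with the other libraries was 0.945 in KI M3 and 0.965 in WT M4, with the next at 0.978 and 0.985.

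The genotype effect differed between groups of libraries in 2 cases. For 1 gene it differed between the sexes by -1.12 log2 units (males minus females), and for 20 genes it differed between striatum and cerebellum of the same animals.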

How the results depend on the processing

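The 3 genes called, and ENSRNOG00000021234, which did not pass, kept their direction in all 34 alternatives, with log2 differences of 0.505 to 0.653 for ENSRNOG00000023148, 0.484 to 0.985 for ENSRNOG00000022419, -0.603 to -0.491 for ENSRNOG00000011073 and -0.416 to -0.294 for ENSRNOG00000021234. The number of genes called was 3 with RLE factors and with either other filter, 4 with DESeq2, and 0 with limma-trend in each of its 3 settings (pseudocount 0.1, pseudocount 1, no filter), which are on the length-scaled values and had 270, 269 and 417 genes at an unadjusted p under 0.05. It was 4 with the length covariate and with all ages in 1 fit, and 2 without a sex term and without KI M3 and WT M4. Leaving out single libraries gave 0 to 3 genes with both sexes (0 without WT F1, with 192 at an unadjusted p under 0.05, and 1 without KI F5, KI M4, WT F4, WT F5, WT M1, WT M2 or WT M3), 0 to 1 in females and 0 in males. DESeq2 called 5 genes in females, 1 in males, 1 for striatum against cortex and 64 for striatum against cerebellum. The share of genes with an interval within 0.5 of 0 was 80.2% with DESeq2, 84.3% without KI M3 and WT M4 and 86.8% with the length covariate. With single libraries left out, the medians of the region-enriched groups ranged from -0.12 to -0.0269 (striatum), 0.0236 to 0.141 (cortex) and -0.00121 to 0.0267 (cerebellum).

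Replicate numbers did not pair KI with WT animals: the 10 correlations of same-numbered pairs ran from -0.445 to 0.399, 3 were over 0.1, and 0 libraries correlated best with their own number. With the replicate block 0 genes were called (226 at an unadjusted p under 0.05), and the edgeR adjusted p was 0.184 for ENSRNOG00000023148 and ENSRNOG00000011073 and 0.947 for ENSRNOG00000022419.

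Intervals were widest for genes under a mean log2 CPM of 0; depth was not varied. Fits without KI F4 and KI M5, without KI M3, WT M4 and KI F5, and within a sex or across sexes, ages or regions without libraries that stood apart were added after the data were seen. Without gene symbols, pathways and cell types could not be named.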
